A study of Mus musculus with 10 samples.

Results

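Rhox5, Rhox6, Rhox9, Magea5 and Trap1a are 5 X-linked mouse genes that are best known from germ cells, placenta and tumours. They were chosen as all probe sets that pair with exactly 1 of these 5 gene symbols, which gave 5 of 45101 probe sets, 1 for each gene. All 5 are among the 13251 genes that passed a filter on low signals and were tested. They were chosen with the difference between haploid stem cells and E14 already known, so their values in that contrast are a description and carry no test.

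RNA was measured on 10 Affymetrix GeneChip 430 2.0 arrays, with cells of 3 kinds sorted by DNA content after staining with Hoechst 33342 at 15 µg/ml. AG-haESC are haploid embryonic stem cells from androgenetic blastocysts, whose genome is paternal only. The 5 lines, each on 1 array, are of C57BL/6J background at passages 12 to 15 and were grown on feeder cells with the inhibitors CHIR99021 and PD0325901. AGH-OG-1 to AGH-OG-4 carry an Oct4-EGFP transgene, and AGH-EG-1 carries an Actin-EGFP transgene. E14 cells are wild-type diploid embryonic stem cells from a male, with a 129/Sv background and at passage 17. Their 3 arrays all come from that 1 line, whose medium the labels do not state. MEF are wild-type B6D2F1 fibroblasts at passage 2 from a male d13.5 embryo, measured on 2 arrays. Haploid cells and E14 differ in ploidy, parental origin, strain, passage and transgene at once, so these cannot be told apart. Culture may differ as well, since the medium of E14 is not stated, and cannot be told apart from these either.

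The Rhox genes are a cluster of homeobox genes on the X chromosome that encode DNA-binding transcription factors of the reproductive tract, the placenta and the early embryo. Rhox5, also named Pem, is the founding member and is active in Sertoli cells of the testis, in extraembryonic tissue and in embryonic stem cells. Rhox6 and Rhox9, also named Psx1 and Psx2, are known from placenta and germ cells. Magea5 belongs to the melanoma antigen genes, a class that is silent in most somatic tissue, active in the male germ line and switched on in many tumours, and whose proteins bind ubiquitin ligases. Trap1a encodes a tumour rejection antigen first found on a mouse mast cell tumour and is otherwise known from placenta and testis. Methylation of DNA at CG dinucleotides is a known silencer of such genes in somatic cells.

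Of the 5 members, 3 matched RefSeq's promoter windows (GRCm38.p6), which are shown because the members differ in the same direction between the groups. They run from 250 bases before to 50 bases after the gene start, and CG dinucleotides are in capitals. Rhox5 lies at chrX:37754358-37754657 on the plus strand, Trap1a at chrX:139333433-139333732 on the plus strand and Magea5 at chrX:155061504-155061803 on the minus strand.
Rhox5: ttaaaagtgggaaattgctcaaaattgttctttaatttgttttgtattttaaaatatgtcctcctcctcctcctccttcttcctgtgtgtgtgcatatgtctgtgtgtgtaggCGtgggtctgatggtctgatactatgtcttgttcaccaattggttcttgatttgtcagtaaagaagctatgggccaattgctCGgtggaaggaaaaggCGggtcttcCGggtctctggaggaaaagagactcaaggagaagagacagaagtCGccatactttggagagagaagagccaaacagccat
Trap1a: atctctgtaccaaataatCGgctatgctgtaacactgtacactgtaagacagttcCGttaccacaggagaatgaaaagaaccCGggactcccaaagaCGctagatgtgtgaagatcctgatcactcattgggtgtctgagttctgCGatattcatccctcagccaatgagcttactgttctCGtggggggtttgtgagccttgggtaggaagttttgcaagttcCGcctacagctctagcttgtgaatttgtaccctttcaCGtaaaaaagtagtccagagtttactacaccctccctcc
Magea5: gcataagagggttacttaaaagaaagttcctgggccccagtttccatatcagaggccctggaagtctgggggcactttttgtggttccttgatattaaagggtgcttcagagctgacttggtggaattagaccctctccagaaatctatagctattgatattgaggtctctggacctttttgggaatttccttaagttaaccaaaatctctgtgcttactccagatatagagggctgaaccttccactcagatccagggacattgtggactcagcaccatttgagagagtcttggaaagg
The Rhox5 window holds 5 CG dinucleotides, the Trap1a window 8 and the Magea5 window 0, against a median of 7 over 32851 promoter windows of the same length and also of 7 over the 1223 X-linked ones. Of all windows, 43.6% hold no more CG than Rhox5, 54.2% no more than Trap1a and 5.43% no more than Magea5. The motif CCAAT was searched on both strands, as CCAAT or ATTGG. It occurs in 37.4% of all windows, at 3 places in Rhox5, of which the first and the second overlap, at 2 places in Trap1a and nowhere in Magea5. The motif CCGGAAG, or CTTCCGG on the other strand, occurs in 8.86% of all windows and once in Rhox5. GGGCGG and CACGTG, also searched on both strands, occur in 35.7% and 7.15% of windows and in none of these. Such a match is a description of letters and shows no binding, and methylation was not measured here.

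Signals are MAS5 intensities on a linear scale whose 2% trimmed mean is 500 in every array, and array medians lay between 55.9 and 68.0. A signal below the median of its own array is treated here as not above background. E14 replicate 3 stood apart from the other E14 arrays, with 1587 of 13251 genes at least 2-fold below the mean of E14 replicates 1 and 2 and 1110 (8.38%) at least 2-fold above it. The members' differences from E14 are therefore given with and without it. Some other genes and counts that changed without it are given as well, but not every such change. Of 10 pluripotency markers, 10 lay above the array median in every AG-haESC and E14 array, against 2 in each MEF array. Of 14 measured fibroblast markers, 14 lay above it in both MEF arrays. In AG-haESC 12 to 14 of them did and in E14 7 to 9, with summed signals of 2852 to 9440 in AG-haESC, 1587 to 2141 in E14 and 155565 to 184335 in MEF.

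All 5 genes read highest in AG-haESC, lower in E14 and lowest in MEF. In every case the lowest AG-haESC line lay above the highest E14 array, which holds for 9.87% of all genes tested. Across all genes 8.32% were called between AG-haESC and E14, in either direction, by an adjusted p under 0.05 together with a 2-fold difference. The members were chosen by this contrast, and nothing is read from their count in it. The size of the difference set the members apart from each other. Rhox6 and Rhox9 were 24.4-fold and 19.8-fold higher in AG-haESC and Magea5 at least 17.4-fold, with its 1 E14 array below the median put at that median, while Rhox5 and Trap1a were already bright in E14 and were 2.93-fold and 1.81-fold higher.

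**Figure D1:**
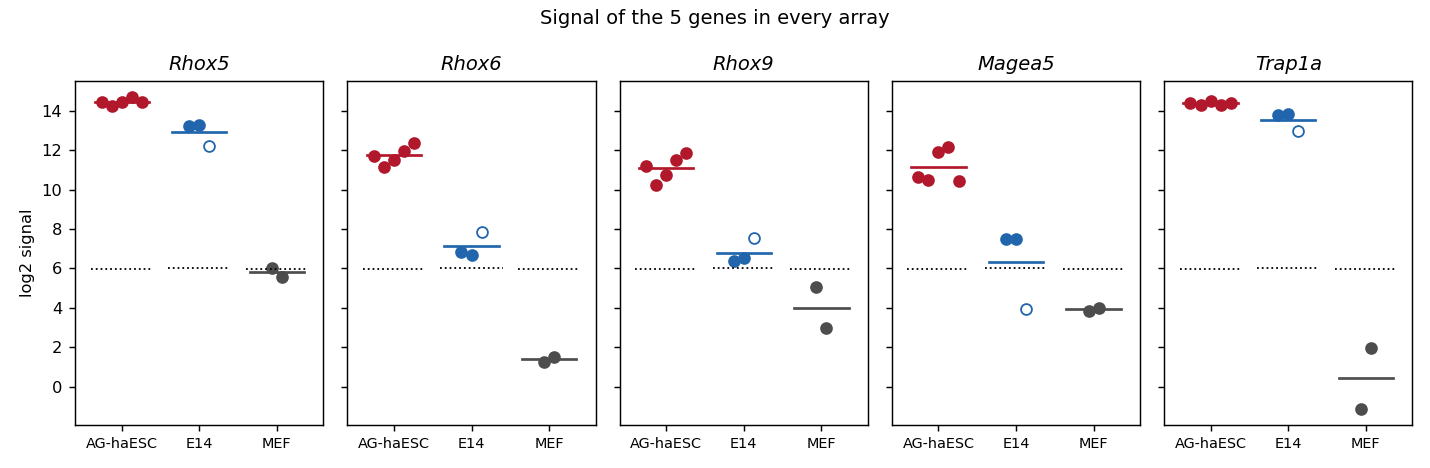
Log2 signal of each of the 5 genes in every array, with AG-haESC (n = 5), E14 (n = 3) and MEF (n = 2) along the horizontal axis. Points are arrays, solid lines are group means, the open point is E14 replicate 3 and dotted lines are the mean log2 array medians. Every AG-haESC point lies above every E14 point, and all MEF points lie below the medians of their arrays.

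Rhox5 read 22304, 19475, 22201, 26876 and 22008 in AGH-OG-1, AGH-OG-2, AGH-EG-1, AGH-OG-3 and AGH-OG-4, against 9675, 9874 and 4713 in E14 replicates 1, 2 and 3 and 65.8 and 47.7 in MEF. The lowest haploid line was 1.97-fold above the brightest E14 array, and both MEF arrays read as background. The difference between AG-haESC and E14 was 1.55 ± 0.23 log2 units (SE, n = 5 and n = 3) and 1.20 without E14 replicate 3.

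Rhox6 read 3296, 2259, 2859, 4002 and 5318 in the lines in the same order, against 114, 103 and 229 in E14 and 2.42 and 2.81 in MEF. Rhox9 read 2386, 1207, 1729, 2910 and 3652 in the lines, against 82.8, 91.2 and 184 in E14 and 33.1 and 7.89 in MEF. Both genes lay within a few-fold of the array median in E14 and far above it in every haploid line, and in both E14 replicate 3 was the brightest E14 array. The lowest line was 9.87-fold above the brightest E14 array for Rhox6 and 6.57-fold for Rhox9. The differences between AG-haESC and E14 were 4.61 ± 0.32 log2 units for Rhox6 and 4.31 ± 0.48 for Rhox9, and 4.97 and 4.67 without E14 replicate 3. Both encode homeodomain proteins of close sequence, and whether the probe set of each also binds RNA of the other was not tested.

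Magea5 read 1619, 1457, 3875, 4652 and 1400 in the lines, against 181, 181 and 15.5 in E14 and 14.5 and 16.0 in MEF. The lines AGH-EG-1 and AGH-OG-3 were the bright pair, and the other lines lay together below them. E14 replicate 3 read at the level of MEF, so the E14 and MEF arrays overlap for this gene. The difference between AG-haESC and E14 was 4.83 ± 0.74 log2 units with the signals as deposited, at least 4.12 with that array at its median, and 3.65, or 12.5-fold, without it. A second probe set pairs with Magea5 and 5 further Magea genes together, and its signal belongs to none of them alone. It read 1223, 1383, 4226, 6887 and 1138 in the lines, against 157, 76.1 and 18.5 in E14 and 10.4 and 11.5 in MEF, with the same bright pair of lines.

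Trap1a read 21553, 20090, 22981, 20325 and 21835 in the lines, against 13871, 14716 and 8081 in E14 and 0.454 and 3.94 in MEF. The lines were nearly alike, and the lowest line was 1.37-fold above the brightest E14 array. The difference between AG-haESC and E14 was 0.85 log2 units, and 0.58 without E14 replicate 3. The SE of the fit, 0.51, draws on a spread that all groups share, and here the SD was 0.079 in AG-haESC and 0.48 in E14 but 2.20 in MEF, where both signals were near 0.

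The 2 comparisons with MEF ask how far the stem cells of each kind differ from fibroblasts, and they share the AG-haESC or E14 arrays with the contrast the members were chosen by. All 5 genes were called higher in AG-haESC than in MEF, where 19.7% of all genes and 36.6% of X-linked genes were, and all 5 higher in E14 than in MEF, where 20.9% of all genes and 23.7% of X-linked genes were. No member lay above the array median in MEF, so each passed the filter on low signals only through stem cell arrays, and these counts support nothing beyond the values. Since MEF gives only a bound, folds are lower limits that put MEF at its array medians. The adjusted p beside them come from limma on the signals as deposited, and like the counts they support nothing beyond the values.

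Rhox5 was at least 355-fold higher in AG-haESC than in MEF and at least 121-fold higher in E14 than in MEF (adjusted p = 7.79e-10 and 1.06e-08). Trap1a was at least 337-fold and at least 187-fold higher (adjusted p = 1.07e-08 and 3.78e-08). These are the members that both kinds of stem cell hold at high signal. Rhox6 was at least 53.7-fold higher in AG-haESC than in MEF but only at least 2.20-fold higher in E14 than in MEF (adjusted p = 2.69e-09 and 4.62e-07). Rhox9 was at least 35.0-fold and at least 1.76-fold higher (adjusted p = 8.97e-07 and 0.00205). Magea5 was at least 35.8-fold and at least 1.26-fold higher (adjusted p = 2.15e-05 and 0.0437). The call of Magea5 for E14 against MEF was lost without any 1 of 8 arrays (E14 replicates 1 and 2, both MEF arrays and AG-haESC replicates 1, 2, 3 and 5, with adjusted p between 0.0515 and 0.148). Its difference was 2.39 ± 0.92 log2 units and 3.57 without E14 replicate 3. With signals below the array median set to that median, Rhox9 was no longer called either for E14 against MEF (adjusted p = 0.15). Rhox6 stayed called there, at 1.14 log2 units and a much larger adjusted p of 0.0272 by limma.

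The 5 haploid lines did not spread alike for the 5 genes. The SD over lines was 0.079 log2 units for Trap1a and 0.17 for Rhox5, against 0.47 for Rhox6, 0.63 for Rhox9 and 0.84 for Magea5. The median SD over lines of all genes was 0.29, and 2.74% of genes had a smaller SD than Trap1a and 91.2% a smaller one than Magea5. The brightest line exceeded the dimmest 1.14-fold for Trap1a, 1.38-fold for Rhox5, 2.35-fold for Rhox6, 3.02-fold for Rhox9 and 3.32-fold for Magea5.

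**Figure D2:**
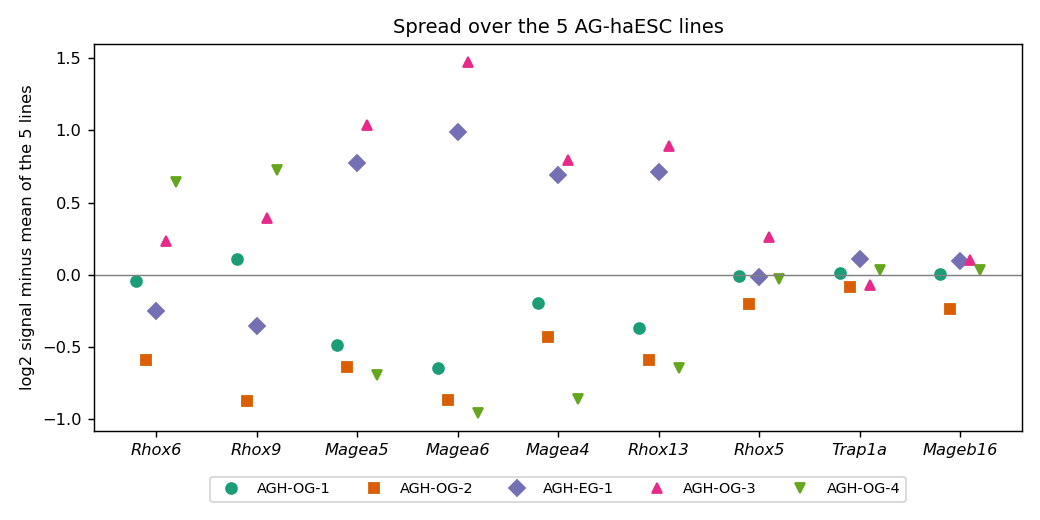
Log2 signal of each gene in each AG-haESC line minus the mean of the 5 lines. Symbols are lines, with 1 array each. Rhox6 and Rhox9 are brightest in AGH-OG-4 and dimmest in AGH-OG-2, while Magea5, Magea6, Magea4 and Rhox13 are brightest in AGH-OG-3 and AGH-EG-1 and dimmest in AGH-OG-4, and Rhox5, Trap1a and Mageb16 vary little.

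The order of the lines differed between members. For Rhox6 and for Rhox9 it was AGH-OG-4, AGH-OG-3, AGH-OG-1, AGH-EG-1 and AGH-OG-2, from high to low. For Magea5 it was AGH-OG-3, AGH-EG-1, AGH-OG-1, AGH-OG-2 and AGH-OG-4, so that the line brightest for Rhox6 and Rhox9 was the dimmest for Magea5. The bright pair for Magea5 joins the Actin-EGFP line at passage 15 with an Oct4-EGFP line at passage 12. The part of transgene and passage was not tested. Each line is 1 array, so a line and its array cannot be told apart.

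E14 replicate 3 also moved the members in both directions. Relative to the mean of E14 replicates 1 and 2, it read 2.11-fold higher for Rhox6 and 2.11-fold higher for Rhox9, and it read lower by 1.77-fold for Trap1a, 2.07-fold for Rhox5 and at least 2.67-fold for Magea5, where it lay below its array median. Markers of germ cells and trophoblast went both ways in that array. Of 9 germ cell markers, 6 lay below both other E14 arrays, with Stra8, a meiosis gene, at 194 against 7595 and 8315 and Dazl, an RNA-binding protein of germ cells, at 308 against 5564 and 6236, and 3 lay above both, with Dppa3 at 2058 against 1152 and 1319. Of 10 trophoblast markers, 5 lay below both, with Ascl2, a transcription factor of the placenta, at 21.5 against 178 and 183, and 3 lay above both, with the keratin Krt8 at 1156 against 226 and 209. Their part in the members' values was not tested.

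Markers of other cell types in which the members are active were set beside them. Trophoblast markers summed to 6728, 4641, 4794, 5463 and 9966 in AGH-OG-1, AGH-OG-2, AGH-EG-1, AGH-OG-3 and AGH-OG-4, against 3397 to 4447 in E14 and 988 to 1420 in MEF. Without Tfap2c, the brightest of them, the sums were 2600 to 5978 in AG-haESC and 1524 to 2847 in E14 and overlapped. The line with the highest sum of all 10 markers, AGH-OG-4, was also the brightest for Rhox6 and Rhox9. The line with the lowest sum, AGH-OG-2, was the dimmest. Neither end of this match is particular to trophoblast. AGH-OG-4 also had the highest sums of endoderm and Sertoli cell markers (16878 and 1115), whose lowest were in AGH-EG-1 (10731) and AGH-OG-1 (429). AGH-OG-2 also had the lowest sum of germ cell markers (16985) and the highest of fibroblast markers (9440). Of 10 measured trophoblast markers, 2 were higher and 0 lower in AG-haESC than in E14, beside 4.58% and 3.74% of all genes, and 4 were higher without E14 replicate 3, when Krt8 and Krt18 were called as well. With all arrays these were Gata3, a transcription factor of trophoblast, at least 2.95-fold higher (adjusted p = 0.000734), and Plac1, a placental surface protein, at least 1.25-fold higher (adjusted p = 0.0482). Eomes and Tfap2c, transcription factors of trophoblast stem cells, differed by 0.39 ± 0.25 and 0.57 ± 0.29 log2 units and did not pass (adjusted p = 0.323 and 0.213). Of 15 listed trophoblast markers, 13 had a probe set of their own and 10 passed the filter on low signals. Cdx2, Elf5, Tpbpa, Prl3d1 and Gcm1 were not among those tested.

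Primitive and extraembryonic endoderm markers, of which 13 were measured, summed to 10731 to 16878 in AG-haESC, 3752 to 6021 in E14 and 60819 to 63441 in MEF. The gap between AG-haESC and E14 in this sum was that of Sparc, which read 8636 to 13267 in AG-haESC and 1336 to 2623 in E14. Without Sparc the sums were 2095 to 3610 in AG-haESC and 2319 to 3397 in E14 and overlapped. Of the 13, 2 were higher and 1 lower with all arrays. Without E14 replicate 3, 3 were higher and 1 lower, when Gata4 was called as well (1.42 log2 units, adjusted p = 0.0485 by limma). Gata4 lay below the array median in every E14 array. Sparc, a matrix protein that fibroblasts also make, was higher in AG-haESC than in E14 by 2.50 ± 0.19 log2 units (adjusted p = 2.41e-05), Afp, a serum protein of the yolk sac, was at least 2.28-fold higher (adjusted p = 0.00171), and Lama1, a laminin chain, was at least 2.33-fold lower (adjusted p = 0.0104), since it lay below the array median in every AG-haESC line. Afp lay below the array median in every E14 and MEF array and passed the filter only through AG-haESC, so its adjusted p supports nothing beyond the values. Of 9 germ cell markers, 2 were higher and 2 lower in AG-haESC than in E14, beside the same 4.58% and 3.74% of all genes, with Sycp1, of the synaptonemal complex, higher by 3.53 ± 0.32 log2 units and Sycp3, of the same complex, different by -1.33 ± 0.24 and thus lower (adjusted p = 5.28e-05 and 0.00425). Dppa3, a maternal-effect factor also active in primordial germ cells, was higher by 1.83 ± 0.35 (adjusted p = 0.00555). Without E14 replicate 3, 2 of the 9 germ cell markers were higher and 3 lower. Stra8 was then called lower (-2.12, adjusted p = 0.0259 by limma), against -0.34 with all arrays. Dazl, not called either way, moved from 1.92 to 0.50. Sertoli cell markers, with 6 measured, summed to 429 to 1115 in AG-haESC, 748 to 1067 in E14 and 1540 to 1684 in MEF, and none was called between AG-haESC and E14 by limma, with 2 at an unadjusted p below 0.05, while 1, Inha, was lower without E14 replicate 3 (-1.02, adjusted p = 0.0355). Of 14 fibroblast markers 7 were higher in AG-haESC than in E14 and 0 lower, against 4.58% and 3.74% of all genes, among them the matrix genes Col1a1, at least 3.89-fold, Postn, at least 3.13-fold, and Col1a2, by 2.69 ± 0.47 log2 units (adjusted p = 0.0106, 0.00571 and 0.00303). Without E14 replicate 3, 8 of the 14 were higher and 1, Pdgfrb, was lower (-1.37, adjusted p = 0.0361 by limma). Col6a1 and Prrx1 were then called higher, and Dcn was no longer called. The 5 members themselves read below the array median in both MEF arrays. The part of other cells in the members' values was not tested, and in bulk RNA fewer cells of a type and less RNA per cell cannot be told apart.

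All 5 genes lie on the X chromosome, whose genes as a class read higher in AG-haESC than in E14. The median difference between AG-haESC and E14 was 0.69 log2 units over 465 X-linked genes and -0.094 over 12732 autosomal genes. Among the 465, Magea5 ranked 2, Rhox6 3 and Rhox9 6, while Rhox5 ranked 59 and Trap1a 193. Trap1a, with its difference of 0.85, thus lay close to the middle of the X-linked genes. Without E14 replicate 3 the X-linked median was 0.60, and the ranks were 10 for Magea5, 2 for Rhox6, 3 for Rhox9, 93 for Rhox5 and 245 for Trap1a.

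**Figure D3:**
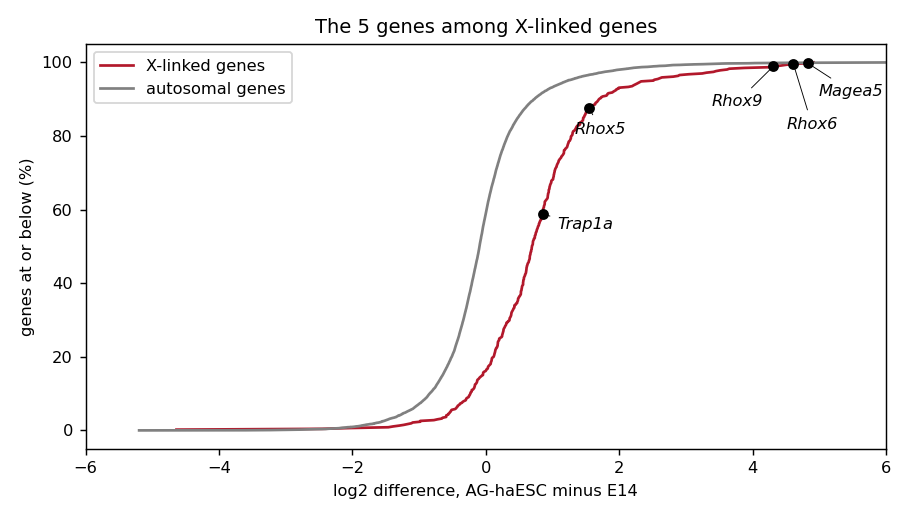
Share of X-linked genes (red, 465 genes) and of autosomal genes (grey, 12732 genes) at or below each log2 difference of AG-haESC minus E14, in percent. Black points are the 5 genes on the curve of X-linked genes: Trap1a at 0.85 lies near the middle, Rhox5 at 1.55 above it and Rhox9, Rhox6 and Magea5 between 4.31 and 4.83 at the top end.

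The RefSeq gene table lists 42 Rhox genes on the X chromosome, pseudogenes included, and 4 of them were tested here. Rhox5 and Rhox6 are direct neighbours in that order, and 3 Rhox genes stand between Rhox6 and Rhox9. The fourth tested gene is Rhox13, known from the male germ line. Rhox13 read 1133, 975, 2396, 2721 and 936 in the lines in the order above, against 5972, 5547 and 195 in E14 and 8.11 and 3.47 in MEF. All haploid lines lay below E14 replicates 1 and 2 and above E14 replicate 3, and AGH-EG-1 and AGH-OG-3 were again the bright pair. The difference between AG-haESC and E14 was -0.35 ± 0.95 log2 units and did not pass (adjusted p = 0.843). Without E14 replicate 3 it was -1.97 (adjusted p = 0.0116), a call in the direction opposite to the differences of Rhox5, Rhox6 and Rhox9. Without E14 replicate 1 or 2 it was 0.49 or 0.44 and not called. Rhox13 was at least 23.1-fold higher in AG-haESC and at least 29.5-fold higher in E14 than in MEF (adjusted p = 6.03e-05 and 9.72e-05). Like the members, it lay below the array median in both MEF arrays and passed the filter only through stem cell arrays. These adjusted p thus support nothing beyond the values.

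Among the genes that flank the members, only Magea6 differed between AG-haESC and E14 by more than Rhox9 did. Of the 10 nearest tested genes on each side of the Rhox cluster, 5 of 20 were higher in AG-haESC than in E14 and 0 lower, against 22.8% and 1.08% of X-linked genes, and their median difference was 0.71 log2 units. Gm9, next to the cluster, was higher by 2.51 ± 0.42 (adjusted p = 0.00265) and Dcaf12l1, the ninth gene on the far side, by 2.88 ± 0.24 (adjusted p = 4.28e-05). Mdrl, C1galt1c1 and Xiap, an inhibitor of apoptosis, were higher by 1.09, 1.24 and 1.07 log2 units. Leaving out E14 replicate 3, 7 of the 20 were higher and 0 lower.

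Around Trap1a, 4 of 20 were higher and 0 lower, with a median of 0.68, and Trap1a itself lay within their range of -0.52 to 3.41. The called genes were Rnf128, a ubiquitin ligase (2.33), Morc4 (1.41), Tex13b (3.41) and Atg4a, a protease of autophagy (1.05 log2 units). Morc4 and Atg4a were at 0.87 and 0.83 and not called without E14 replicate 3, and Tex13b was at 1.63. Zcchc18 was then called (1.09, adjusted p = 0.0496 by limma), so that 3 of the 20 were higher and 0 lower. Around Magea5, 2 of 20 were higher and 0 lower, with a median of 0.76. These were Magea6, the next tested gene, and Acot9, a thioesterase (1.28 ± 0.11, adjusted p = 3.6e-05). When E14 replicate 3 was left out, 4 of the 20 were higher, with Spin2c and Kctd12b added.

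**Figure D4:**
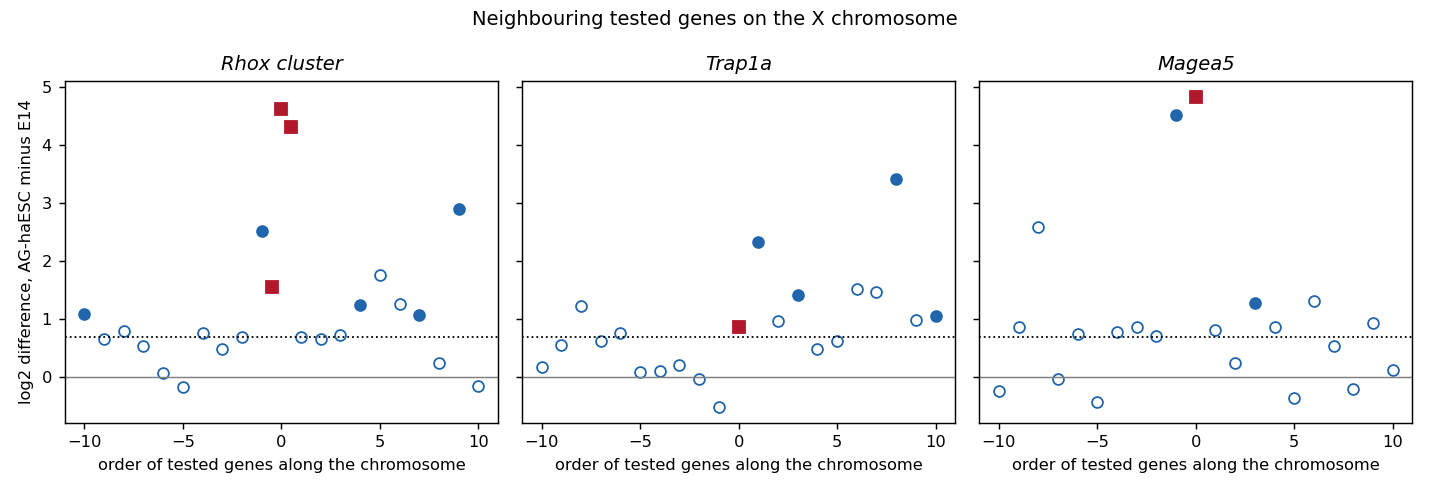
Log2 difference of AG-haESC minus E14 for the 10 nearest tested genes on each side of the Rhox cluster, Trap1a and Magea5, in chromosome order. Blue circles are neighbours, filled where called, red squares are the members at position 0 and the dotted line is the X-linked median of 0.69. Magea6, beside Magea5, is the only neighbour above 4 log2 units.

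Of the MAGE family without Magea5, 11 of 33 listed genes were tested. Between AG-haESC and E14, 4 were higher and 0 lower, beside 4.58% and 3.74% of all genes and 22.8% and 1.08% of X-linked genes. Of these 11, 7 are X-linked, and so are 3 of the 4 called, Magea6, Maged1 and Maged2. The median difference was 0.98 log2 units, against -0.082 over all genes and 0.69 over X-linked genes. The melanoma antigen gene Magea6 read 393, 337, 1220, 1710 and 316 in the lines, against 32.1, 43.4 and 14.1 in E14 and 9.41 and 0.903 in MEF. It lay below the array median in every E14 and MEF array and followed the line order of Magea5. It was at least 9.35-fold higher in AG-haESC than in E14 and at least 9.71-fold higher than in MEF (adjusted p = 0.00332 and 2.29e-05). Magea6 passed the filter on low signals only through the AG-haESC arrays. Its adjusted p and its place among the 4 called thus support nothing beyond the values. Its transcript resembles that of Magea5, and a shared signal between their probe sets was not tested.

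Of the MAGE genes that most tissues express, Maged1, Maged2 and Ndn were higher in AG-haESC than in E14. Maged2 was higher by 1.33 ± 0.14 log2 units and Ndn, a paternally expressed imprinted gene, by 1.24 ± 0.18 (adjusted p = 0.000121 and 0.001). Maged1, which takes part in neurotrophin signalling, was higher by 1.01 ± 0.21 (adjusted p = 0.00811), at the edge of the 2-fold limit. Its difference was under 2-fold without any 1 of AG-haESC replicates 1, 4 and 5 and E14 replicate 3, at 0.99, 0.89, 0.99 and 0.80. Mageb16 read 6807 to 8618 in AG-haESC, against 4221 to 5184 in E14 and 0.584 and 5.79 in MEF, a pattern like that of Trap1a, with a difference of 0.81 ± 0.52 between AG-haESC and E14 (adjusted p = 0.327). As for Trap1a, this SE and p draw on a spread that all groups share. The SD of Mageb16 was 0.14 in AG-haESC and 0.15 in E14 but 2.34 in MEF, where both signals were near background. Magea4, Magee1 and Mageb3 differed by 1.48 ± 0.58, 0.98 ± 0.40 and 0.93 ± 0.65 (adjusted p = 0.111, 0.121 and 0.365), with 1, 1 and 2 of the 3 E14 arrays below their medians. Without E14 replicate 3 Magea4 and Magee1 were at 0.65 and 0.49. Mageh1, Magel2, an imprinted gene, and Nsmce3, a subunit of the SMC5/6 complex, differed by -0.041 ± 0.15, -0.62 ± 0.36 and -0.086 ± 0.12 (adjusted p = 0.884, 0.269 and 0.683).

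**Figure D5:**
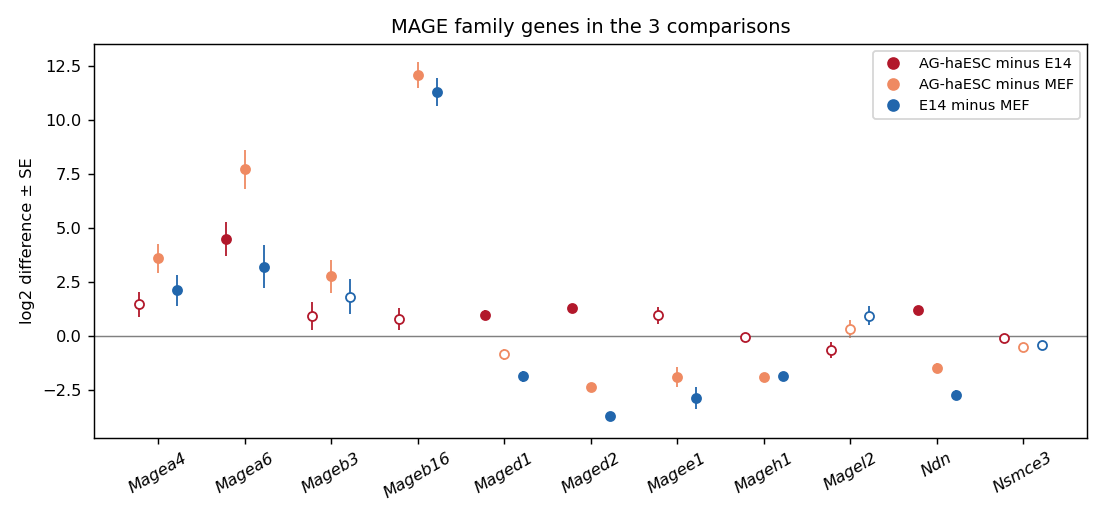
Log2 difference with SE of the 11 tested MAGE genes other than Magea5, for AG-haESC minus E14 (red), AG-haESC minus MEF (orange) and E14 minus MEF (blue), filled where called. Magea4 and Mageb16 are higher in both stem cell groups than in MEF, while Maged2, Magee1, Mageh1 and Ndn are lower in both. Magea6 is higher in AG-haESC than in MEF. Its filled point for E14 minus MEF rests on signals below the array median in both groups.

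Against MEF the tested MAGE genes went both ways. In AG-haESC against MEF 4 were higher (19.7% of all genes) and 4 lower (22.5%), and in E14 against MEF 3 were higher (20.9%) and 5 lower (21.3%). The genes called higher, from among Magea4, Magea6, Mageb3 and Mageb16, lay below the array median in both MEF arrays. They passed the filter on low signals only through stem cell arrays, so the counts of higher genes and their adjusted p support nothing beyond the values. With signals below the array median set to that median, 1 in place of 3 was higher in E14 than in MEF. Mageb16 was at least 127-fold higher in AG-haESC and at least 72.7-fold higher in E14 than in MEF (adjusted p = 2.95e-08 and 1.37e-07). Magea4 was at least 4.41-fold and at least 1.58-fold higher (adjusted p = 0.000666 and 0.0266), while Magea6 lay below the array median in E14 and in MEF, so that its call between them has no fold (adjusted p = 0.0162). Mageb3 was at least 1.14-fold higher in AG-haESC (adjusted p = 0.007). Maged2, Magee1, Mageh1 and Ndn were lower in both kinds of stem cell, by -2.34, -1.87, -1.86 and -1.45 log2 units in AG-haESC and by -3.68, -2.85, -1.81 and -2.69 in E14. Maged1 was lower by -1.84 in E14 and by -0.83, under 2-fold, in AG-haESC.

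Of 56 other X-linked germ cell genes listed, 14 were tested, 13 of them X-linked by the gene table. Between AG-haESC and E14, 3 were higher and 0 lower, beside 22.8% and 1.08% of X-linked genes, with 12 of 14 positive. The median difference was 1.07 log2 units and 0.20 without E14 replicate 3. Tex13b, a testis gene, was at least 6.49-fold higher and Xlr4c, of a lymphocyte-regulated X-linked family, at least 2.63-fold (adjusted p = 0.0411 and 0.0263), with the 1 and 2 E14 arrays below their medians put at those medians. Fmr1nb, a testis antigen, was higher by 1.41 ± 0.37 log2 units (adjusted p = 0.0247). Without E14 replicate 3 the differences of the 3 genes were 1.63, 1.79 and 0.80, and Fmr1nb was then under 2-fold. That array read 15.3, 2.45 and 1387 for Tex13b, Xlr4c and Fmr1nb, while E14 replicate 2 read 635, 40.1 and 4898. The count of this list was 1 in place of 3 when AG-haESC replicate 1, 3 or 5 was left out, and without replicate 3 none of these genes was the one called. Tex13b lost its call without any 1 AG-haESC or MEF array, with an adjusted p between 0.0561 and 0.0813. Against MEF, 13 of 14 were higher in AG-haESC (36.6% of X-linked genes) and 11 in E14 (23.7%). All but Taf7l and Zfp280c lay below the array median in both MEF arrays. Those genes passed the filter on low signals only through stem cell arrays, so these counts support nothing beyond the values.

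Genes that keep germ cell genes silent in other cells were listed as well, such as the DNA methyltransferases, the histone methyltransferases Setdb1 and Ehmt2 and the E2f6 complex. The list also holds other regulators, among them Tet1, Tet2 and Ctcf, so its counts and median are not of silencing genes alone. Of 32 tested, 0 were called by limma between AG-haESC and E14, with 10 at an unadjusted p below 0.05 and 3 at an adjusted p below 0.05 but under 2-fold, beside 8.32% of all genes called. The number was 1 without E14 replicate 3, when Dnmt3l, a cofactor of the methyltransferases, was higher (1.04, adjusted p = 0.0419), and 2 with every kept probe set on its own. The median difference was -0.17 log2 units against -0.082 over all genes. Dnmt1, which maintains DNA methylation, read 12.02 in AG-haESC against 12.39 in E14 (mean log2 signal), Dnmt3a, which adds it anew, 10.11 against 11.20, and Dnmt3b 11.995 against 12.56 (adjusted p = 0.0795, 0.157 and 0.364). E14 replicate 3 was the brightest E14 array for both Dnmt3a and Dnmt3b, with 6219 for Dnmt3a against 1602 and 1305. Without it, Dnmt3a differed by -0.39 and Dnmt3b by 0.07, the opposite sign (adjusted p = 0.489 and 0.856). The 3 under 2-fold were the histone deacetylase Hdac1 (0.75), the Polycomb subunit Suz12 (0.42) and Mga (-0.46). Against MEF, 16 of the 32 were higher in AG-haESC and 1 lower, beside 19.7% and 22.5% of all genes. In E14 17 were higher and 1 lower, beside 20.9% and 21.3%.

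The genes most like each member were named by Pearson's r of log2 signals, which is a description with no test. Over all 10 arrays, where the gap between stem cells and MEF dominates, these were Fmr1nb, Llgl2 and Dut for Rhox5 (r from 0.996 to 0.997), 1700019A02Rik, Plet1 and Ube2a for Rhox6 (0.992 to 0.994), Mt1, Txlng and Fgd1 for Rhox9 (0.982 to 0.986), 4930550L24Rik, Med10 and Lonrf3 for Magea5 (0.984 to 0.988) and Fbxo15, Arid3b and Rrm2 for Trap1a (0.996 to 0.997). Over the 8 stem cell arrays, Rhox6 and Rhox9 were the closest to each other of all genes (r = 0.997), followed for both by Nnmt, a nicotinamide methyltransferase, and E030030I06Rik. Rhox5 was followed by Wfdc2, Qpct and Hspb1 (0.994 to 0.997), Magea5 by the X-linked genes 1700080O16Rik, Heph and Gm9 (0.990 to 0.992) and Trap1a by Cd200, Pik3c2a and Cibar1 (0.987 to 0.992). The points share their group and array, so the gap between groups and the place of E14 replicate 3 enter every one of these values.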

How the data were processed

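The authors deposited 1 linear intensity for each probe set and array, made with MAS5 per the submitters' processing notes, which give no version. Signals were taken to log2 with no pseudocount. A probe set was kept (27505 were) where 2 or more arrays read it above their median, and each gene was read on its brightest kept probe set that pairs with 1 symbol, which gave 13251 genes. Names came from a platform table, chromosomes and neighbours from the RefSeq gene table of GRCm38.p6 through gene IDs. The test was limma (version 3.58.1, R version 4.3.3) in 1 fit of 3 group means over 10 arrays (7 residual degrees of freedom, prior variance with trend), two-sided, adjusted by Benjamini-Hochberg over all genes. AG-haESC replicates 1 to 5 are AGH-OG-1, AGH-OG-2, AGH-EG-1, AGH-OG-3 and AGH-OG-4, numbered in accession order. The number of arrays limits the precision, and the labels call the E14 and MEF arrays biological replicates without naming separate cultures. The members and lists were chosen with earlier results of these data known. Named genes follow a rule: the members, all tested Rhox and MAGE genes and called X neighbours. Also named by it are the 3 largest called differences of other lists and the 3 likest genes. The second Magea probe set, the marker sums without Sparc or Tfap2c and the further genes with values were added after their values were seen. Alternatives were a pseudocount, a floor, 2 other filters, quantile normalization, no trend, array weights, other uses of probe sets, fits of 2 groups, leaving out each array and a replicate block.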

Additional observations from a re-analysis of the deposited data

Results flagged for a closer look

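Mageb16 had a log2 signal of 12.73 in AGH-OG-2, while the other AG-haESC lines lay between 12.98 and 13.07, so that the gap of this line to the nearest one took up most of the range of the 5 lines. AGH-OG-2 was also the dimmest line for Rhox5, Rhox6, Rhox9 and Trap1a. Chance marks about 1 in 20 such groups, and 17 genes were looked at.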

How the results depend on the processing

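The differences of the 5 members between AG-haESC and E14 kept their sign under every alternative run, with Rhox5 between 1.20 and 1.73, Rhox6 between 4.31 and 4.97, Rhox9 between 3.95 and 4.67, Magea5 between 3.62 and 5.42 and Trap1a between 0.58 and 1.01 log2 units. All 5 stayed called for AG-haESC against MEF. For E14 against MEF, Magea5 was no longer called with a pseudocount of 32 (1.45, adjusted p = 0.0777), with no filter (2.39, 0.0517), with quantile normalization (2.25, 0.0642), with no trend (2.39, 0.0728), in a fit of the 2 groups alone (2.39, 0.13) and with low signals raised to the array median (1.04, 0.15), and leaving out 1 array gave 1.80 to 3.57. Rhox9 was no longer called with the floor (0.82, adjusted p = 0.15). The cause was not tested. E14 and MEF share 2 replicate numbers. Deviations of same-numbered arrays correlated at -0.026 across genes, so the numbers are not known to pair the arrays. With the replicate block Magea5 differed by 3.57 and Rhox9 by 2.43, and 5 of 5 members stayed called. MEF has no replicate 3, so the block also sets E14 replicate 3 aside, and these are the values without that array. The number of genes called for AG-haESC against E14 was 1102, 1707 with array weights and 844 to 1341 without 1 array. The 3 other X-linked germ cell genes called became 5 with quantile normalization, 1 with no trend and 1 to 3 without 1 array. Signal near background limits Magea5, Rhox6 and Rhox9 in E14 and the 5 members in MEF.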
